A study of Mus musculus with 24 samples.

Results

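The genes described here are 36 genes of the unfolded protein response and the integrated stress response, named from what is known of the pathways. They were chosen with earlier results of these data known, so their directions and counts are not independent evidence. Each was read from the probe set annotated to that symbol alone, taking the one with the highest mean where a gene had several. All 36 had such a probe set, among 19938 genes measured that way. They were grouped by role into 16 folding enzymes and chaperones of the endoplasmic reticulum (ER), 8 genes of ER-associated degradation and translocation, 3 stress sensors with Xbp1 (4 genes), and Atf4 with 7 of its targets (8 genes). The first and second groups together (24 genes) hold mainly targets of ATF6 and XBP1 and are called the chaperone and degradation arm below. The last group is called the ATF4 arm.

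The RNA came from embryoid bodies (EBs), floating and later plated aggregates in which embryonic stem cells differentiate, made from the mouse line 46C. This line carries a GFP reporter in its Sox1 gene, and all groups share it, so the results describe 1 line and a mixture of its descendants. Treated EBs received FK506 (100 ng/ml) together with cyclosporin A (1 ug/ml) from day 3 until day 8. Both drugs inhibit the phosphatase calcineurin once bound to their immunophilin partners, and because they were given together their effects cannot be told apart. Untreated EBs had neither drug. Treated and untreated EBs were collected at days 4, 6, 8 and 12 from 3 independent experiments, giving 8 groups of 3 arrays. The EBs were plated on day 7 and moved to a serum-free medium at day 8. The day 12 samples thus followed both the end of the drugs and this change of medium.

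Proteins that enter the ER are folded by chaperones of the Hsp70 and Hsp90 families, lectin chaperones and disulfide isomerases, and chains that fail to fold are sent back to the cytosol for degradation. Unfolded chains activate the sensors ATF6, IRE1 (Ern1) and PERK (Eif2ak3). Cleaved ATF6 and the XBP1 made after splicing by IRE1 switch on genes for chaperones and degradation factors. PERK phosphorylates the initiation factor eIF2, which lowers translation in general and raises that of ATF4. Other kinases that answer to lack of amino acids, haem or to viral RNA act on the same factor, and this shared output is the integrated stress response. Cells that secrete heavily, among them visceral endoderm and collagen-making mesenchyme, hold high levels of many of these genes.

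Several promoters of the chaperone and degradation arm carry the sequence through which ATF6 and XBP1 are known to act, and they are shown because the 2 arms differ in this feature. RefSeq promoters (GRCm38.p6, 250 bases before to 50 after each gene's start) were available for 32 of the 36 genes and not for Derl1, Manf, Hyou1 and Atf6. On either strand, the ER stress response element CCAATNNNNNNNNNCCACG was found in 9 of the 32. It lay in 7 of 14 promoters of chaperones and folding enzymes (Hspa5, Hsp90b1, Calr, Canx, Pdia6, Dnajc3 and Creld2), in 2 of 7 of degradation genes (Syvn1 and Derl3) and in 0 of 8 of the ATF4 arm. Over all 32851 promoters of the table, 39 (0.119%) held it. Hsp90b1 had it at 2 places. The related element II, ATTGG and CCACG with any base between them, was found in Herpud1 and Dnajb11 and in 0.0365% of all promoters. The C/EBP-ATF response element TGATGNAA, which ATF4 dimers bind, was found in 4 of 8 genes of the ATF4 arm (Atf3, Chac1, Trib3 and Asns) and in Herpud1, against 3.97% of all promoters. The shorter XBP1 motif TGACGTGG was in 0 of the 32, against 0.676% of all. No pair of these motifs overlapped in the stretches below, which run in the direction of the gene with the matched element in capitals. They come from chr2:34771996-34772055 on the plus strand (Hspa5), chr12:17266462-17266521 on the plus strand (Pdia6) and chr10:86705521-86705668 on the minus strand (Hsp90b1). The Herpud1 stretch is chr8:94386305-94386399 on the plus strand, with the C/EBP-ATF element first and element II after it. That of Chac1 is chr2:119351009-119351068 on the plus strand. The C/EBP-ATF elements of Herpud1 and Chac1 and the second site in the Hsp90b1 stretch match on the strand opposite to the gene.
Hspa5: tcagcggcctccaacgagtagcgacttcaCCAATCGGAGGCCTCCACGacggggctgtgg
Pdia6: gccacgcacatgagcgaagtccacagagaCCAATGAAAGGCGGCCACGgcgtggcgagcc
Hsp90b1: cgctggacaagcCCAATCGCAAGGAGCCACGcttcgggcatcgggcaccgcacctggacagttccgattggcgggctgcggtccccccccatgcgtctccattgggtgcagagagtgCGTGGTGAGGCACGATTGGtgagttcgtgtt
Herpud1: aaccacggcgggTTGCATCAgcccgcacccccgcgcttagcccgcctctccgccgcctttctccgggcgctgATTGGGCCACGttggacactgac
Chac1: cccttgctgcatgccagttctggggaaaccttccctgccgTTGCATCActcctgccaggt

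Averaged over the days with the drugs, 18 of 24 genes of the chaperone and degradation arm were higher in treated EBs, by small amounts, and no gene of the ATF4 arm passed the test. Values are log2 signals of the arrays. Differences are treated minus untreated on that scale, and genes are described as having risen or fallen where the adjusted p of limma's moderated test over all 19938 genes was under 0.05. Over the mean of days 4, 6 and 8, 20 of the 36 genes rose and 0 fell, where 4.66% of all genes rose and 2.17% fell. The 20 were 12 of 16 chaperones and folding enzymes, 6 of 8 degradation and translocation genes, Xbp1 and Atf6, and 0 of 8 genes of the ATF4 arm. The median difference was 0.19 in the chaperone and degradation arm and 0.06 in the ATF4 arm, against -0.00 over all genes. The SE of these differences ran from 0.03 to 0.09 in the chaperone and degradation arm and from 0.05 to 0.10 in the ATF4 arm. The arms were not tested against each other. With days 4 and 6 alone, a choice made after the values were seen, 6 of 24 genes of the chaperone and degradation arm rose (Pdia6, Edem1, Herpud1, Hyou1, Sec61b and Derl1) and 0 of 8 of the ATF4 arm, where 0.652% of all genes rose, and the medians were 0.18 and 0.15.

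**Figure D1:**
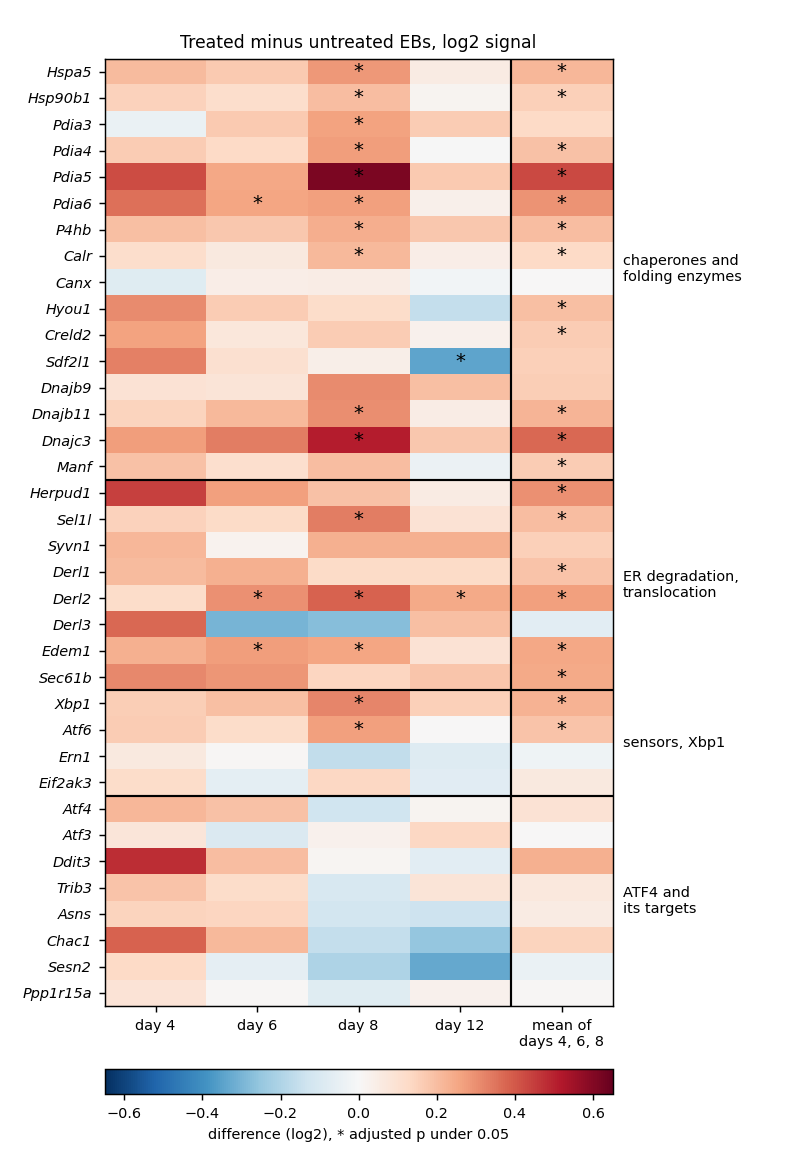
Treated minus untreated difference in log2 signal (colour) for each of the 36 genes (rows, by role) at days 4, 6, 8 and 12 and for the mean of days 4, 6 and 8 (columns), with asterisks where the adjusted p was under 0.05. In the mean column 20 genes carry an asterisk and none of them lies in the ATF4 group at the bottom.

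The arrays themselves separated by treatment on each drug day in the chaperone and degradation arm. Expressed as the mean deviation of its 24 genes from their own means over 24 arrays, the treated arrays read 0.20, 0.15 and 0.15 at day 4, against -0.06, -0.02 and -0.06 in untreated arrays. At day 6 the treated arrays read 0.15, 0.14 and 0.08 and the untreated arrays -0.01, -0.02 and -0.05. At day 8 the treated arrays read 0.20, 0.04 and 0.09, and the untreated arrays -0.10, -0.16 and -0.09. The 3 treated arrays lay above the 3 untreated ones on all 3 days. In the ATF4 arm the treated arrays at day 4 read 0.16, 0.09 and 0.05, against -0.08, -0.13 and -0.13 in untreated arrays, again without overlap. At day 8 they read -0.33, -0.07 and -0.18 in treated EBs and -0.09, -0.15 and -0.07 in untreated EBs, which overlap.

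**Figure D2:**
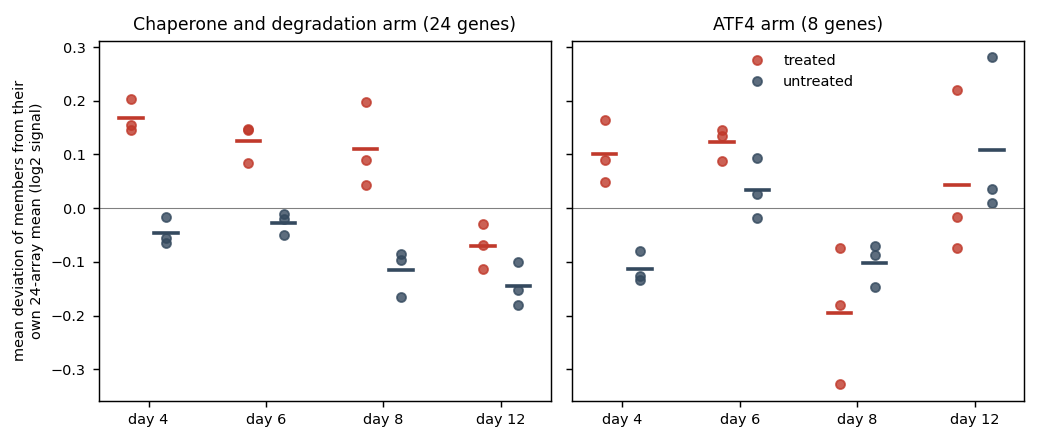
Mean deviation of the genes of each arm from their own 24-array means (log2 signal), 1 point per array and a bar at the group mean, for the chaperone and degradation arm (left, 24 genes) and the ATF4 arm (right, 8 genes) in treated and untreated EBs by day. In the left panel treated points lie above untreated ones at each drug day, and in the right panel the groups are apart at day 4 and overlap from day 6 on.

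Gene by gene, the 3 treated arrays lay above the 3 untreated ones on all 3 drug days for 11 of the 24 genes of the chaperone and degradation arm (45.8%), for Xbp1 among the 4 genes of its group, and for 0 of 8 genes of the ATF4 arm. Over all genes 136 of 19938 (0.682%) did so. The 11 were Hspa5, Hsp90b1, Pdia5, Pdia6, P4hb, Creld2, Dnajc3 and Manf among the chaperones and Herpud1, Sel1l and Edem1 among the degradation genes.

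Day by day, calls of single genes were few until day 8. At day 4, 0 of 36 genes passed the limma test, where 0.00502% of all genes rose. At an unadjusted p under 0.05, 21 of 36 did so at day 4, against 5.66% of all genes, and 34 of 36 differences were above 0 (64.1% of all genes). For 26 of 36 the lowest treated array exceeded the highest untreated one at day 4, against 8.19% of all genes, and for 19 (12.1%) and 18 (9.37%) at days 6 and 8. With limma's array weights 10 rose at day 4, and 100 of all 19938 genes did. The day 4 weights ran from 0.24 to 4.79. They stopped before full convergence, so counts with them are approximate. At day 6 Pdia6, Derl2 and Edem1 rose, 3 of 36 (1.26% of all genes), and 5 with same-numbered arrays treated as pairs (418 of all genes). That count was 0 without untreated replicate 2 or 3 or treated replicate 1, 1 without treated replicate 3, and 0 when only the day 6 arrays were fitted. Over all genes 79, 174, 94 and 155 rose without these arrays in turn, and 265 with the day 6 arrays alone, against 251 as reported. At day 8, 15 of 36 rose and 0 fell, where 4.86% of all genes rose and 4.08% fell. That count was 6 without untreated replicate 2, 2 without treated replicate 1, 7 without treated replicate 3, and 0 when only the day 8 arrays were fitted, a fit in which 0 of all genes passed. Over all genes 245, 201 and 386 rose without these arrays in turn, against 968 as reported. Centring each array on its median gave 1522 genes higher and 583 lower at day 8, against 968 and 813 as deposited, and quantile normalization gave 716 and 591 over the drug days, against 930 and 433. The change of the treatment effect between neighbouring days was called by limma for 0 of 36 genes between days 4 and 6, 6 and 8, and 8 and 12 (0.0953%, 0.401% and 5.2% of all genes), with 1, 2 and 11 at an unadjusted p under 0.05 (8.11%, 11.1% and 22.3% of all genes).

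Markers of other cell types of the EBs moved with treatment too, mainly from day 8. Markers of visceral endoderm had median differences of 0.02, 0.15, 0.65 and 0.90 at days 4, 6, 8 and 12, with 0, 1, 7 and 9 of 15 risen. Markers of mesenchyme and fibroblasts had 0.00, 0.08, 1.14 and 1.07, with 0, 1, 8 and 8 of 10 risen. On those days 0.00502%, 1.26%, 4.86% and 7.49% of all genes rose. Neural markers had medians of 0.01, -0.09, -0.48 and -1.15. The mean log2 signal of the visceral endoderm list was 7.46 to 7.57 per treated array and 7.49 to 7.64 per untreated array at day 4, which overlap. It was 8.30 to 8.35 in treated arrays and 7.93 to 8.20 in untreated arrays at day 6, and 9.65 to 10.01 in treated arrays and 8.85 to 9.50 in untreated arrays at day 8, without overlap. The mesenchyme list read 7.83 to 7.96 in treated arrays and 7.85 to 7.96 in untreated arrays at day 4. At day 6 it read 8.20 to 8.32 in treated arrays and 7.97 to 8.14 in untreated arrays. At day 8 it read 9.42 to 10.85 in treated arrays and 8.62 to 9.44 in untreated arrays, which overlap. Both lists thus overlapped at day 4 and stood higher in every treated array at day 6, where the chaperone and degradation arm did too. The part of these cell types in the day 6 and day 8 values was not tested. In RNA from whole EBs, fewer cells of a type and less RNA per cell cannot be told apart.

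Pdia6, a disulfide isomerase whose promoter is shown above, read 11.96, 11.79 and 11.76 in treated EBs at day 4, against 11.46, 11.52 and 11.46 in untreated EBs. At day 6 it read 11.69, 11.77 and 11.69 in treated EBs and 11.45, 11.42 and 11.51 in untreated EBs. At day 8 it read 11.71, 11.57 and 11.59 in treated EBs and 11.39, 11.37 and 11.31 in untreated EBs. No treated array overlapped an untreated one on these days. The difference over the drug days was 0.29 (SE 0.04, 1.23-fold, adjusted p = 0.00035).

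Pdia5, another isomerase of the family, had the largest difference of the 36 over the drug days, 0.43 (SE 0.07, 1.35-fold, adjusted p = 0.000991). At day 4 it read 9.80, 9.60 and 9.61 in treated EBs, against 9.25, 9.31 and 9.19 in untreated EBs. Its day 8 arrays read 10.30, 9.70 and 10.06 in treated EBs, against 9.51, 9.28 and 9.43 in untreated EBs. Treated replicate 1 was the highest at both days, and the lowest treated array still exceeded the highest untreated one. Dnajc3, a J-domain partner of BiP that also restrains PERK, followed with 0.37 (SE 0.06, adjusted p = 0.0017). Its day 8 arrays read 10.54, 9.94 and 10.28 in treated EBs, against 9.83, 9.65 and 9.75 in untreated EBs. Replicate 1 was again the highest treated array, and the day 8 call of Dnajc3 ended without that array or with the day 8 arrays fitted alone.

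Hspa5 encodes BiP, the main Hsp70 of the ER and the protein that holds the sensors inactive. It read 12.76, 12.62 and 12.62 in treated EBs at day 4, against 12.53, 12.45 and 12.40 in untreated EBs. At day 6 it read 12.50, 12.45 and 12.57 in treated EBs, against 12.28, 12.31 and 12.42 in untreated EBs. The day 8 arrays read 12.96, 12.65 and 12.77 in treated EBs, against 12.56, 12.49 and 12.49 in untreated EBs. The groups did not overlap on any drug day, and the difference over them was 0.22 (SE 0.04, 1.16-fold, adjusted p = 0.00396). Hsp90b1, the Hsp90 of the ER (GRP94), whose promoter has the element at 2 places, read 12.69, 12.62 and 12.64 in treated EBs at day 8, against 12.46, 12.43 and 12.45 in untreated EBs. Its difference over the drug days was 0.16 (SE 0.03, adjusted p = 0.00295), a small difference with little spread between arrays.

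**Figure D3:**
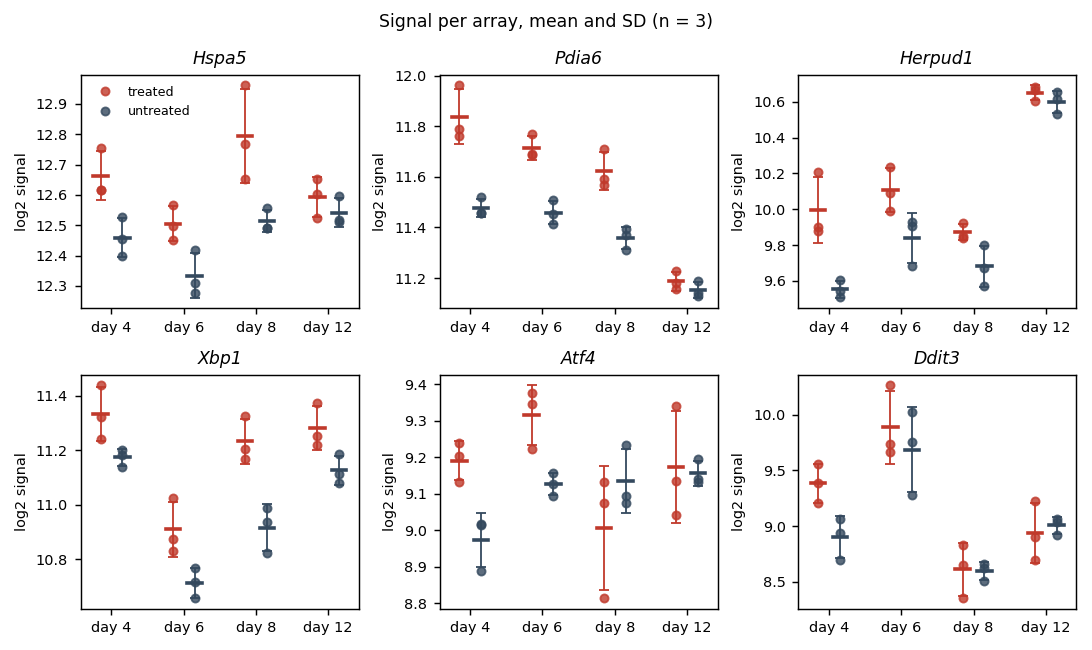
Log2 signal per array (points) with the group mean and SD (n = 3) for 6 genes in treated and untreated EBs at each day, on axes that do not start at 0. Hspa5, Pdia6, Herpud1 and Xbp1 lie higher in treated EBs at days 4, 6 and 8, and Atf4 and Ddit3 overlap at day 8.

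P4hb, the founding disulfide isomerase and a subunit of collagen prolyl hydroxylase, read 12.57, 12.41 and 12.49 in treated EBs at day 8, against 12.36, 12.18 and 12.22 in untreated EBs, and rose over the drug days by 0.20 (adjusted p = 0.00316). Dnajb11, a J-domain partner of BiP, read 10.37, 10.03 and 10.25 in treated EBs at day 8, against 9.87, 9.92 and 9.96 in untreated EBs (0.22 over the drug days, adjusted p = 0.0102). Pdia4, an isomerase of the same family, read 12.39, 12.26 and 12.31 in treated EBs at day 8, against 12.07, 12.03 and 12.03 in untreated EBs (0.19, adjusted p = 0.00295). None of these 3 overlapped at day 8. A second and dimmer probe set of Pdia4 gave a day 8 difference of 0.07, against 0.27 for the one used, and the day 8 call ended with the mean of the 2 and without treated replicate 1.

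Hyou1, a large Hsp70-type chaperone that exchanges nucleotide on BiP, read 10.98, 10.97 and 10.95 in treated EBs at day 4, against 10.65, 10.68 and 10.66 in untreated EBs. Its differences were 0.31, 0.17 and 0.12 at days 4, 6 and 8, and it rose over them by 0.20 (adjusted p = 0.003). Creld2, a secreted ER protein known as a marker of ER stress, read 11.81, 11.72 and 11.68 in treated EBs at day 4, against 11.44, 11.48 and 11.51 in untreated EBs, and rose over the drug days by 0.17 (adjusted p = 0.0179). Both genes thus read highest relative to untreated EBs on the day after the drugs were added, though no change between neighbouring days passed the test. Calr, the soluble lectin chaperone calreticulin, read 12.86, 12.66 and 12.73 in treated EBs at day 8, against 12.60, 12.47 and 12.55 in untreated EBs. It rose by 0.13 over the drug days (adjusted p = 0.024), but not without treated replicate 1 of day 6 (0.0530), untreated replicate 2 of day 8 (0.0671) or treated replicate 1 of day 8 (0.0655).

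Manf, an ER-resident factor released under stress, read 10.24, 10.28 and 10.27 in treated EBs at day 4, against 10.11, 10.06 and 10.06 in untreated EBs. Its call over the drug days (0.17, adjusted p = 0.0388) ended in 16 of 28 alternatives, 14 of them a single array left out, with values of 0.12 to 0.18. Of the 4 that were not called, Pdia3, the isomerase that works with the lectin chaperones, rose at day 8 alone. It read 12.59, 12.46 and 12.72 in treated EBs there, against 12.39, 12.28 and 12.32 in untreated EBs (0.26, adjusted p = 0.0402), and averaged over the drug days 0.13 (adjusted p = 0.0919). The day 8 call ended without untreated replicate 2 (0.184) or 3 (0.0897), without treated replicate 1 (0.157) or 3 (0.218), and with the day 8 arrays fitted alone (0.179). Dnajb9, a J-domain protein that tunes IRE1, had 0.16 (adjusted p = 0.0975), and Sdf2l1, a chaperone cofactor, 0.16 (adjusted p = 0.117). Canx, the membrane lectin chaperone calnexin, stood at 0.00 (SE 0.04) although its promoter holds the element. Its group means ran from 13.07 to 13.24 over the 8 groups.

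In the degradation group, Herpud1, a membrane scaffold of the ubiquitin ligase complex, had the largest difference at day 4. It read 10.21, 9.90 and 9.88 in treated EBs, against 9.60, 9.55 and 9.51 in untreated EBs (0.44, SE 0.09, adjusted p = 0.136). At day 6 it read 10.24, 10.09 and 9.99 in treated EBs, against 9.91, 9.93 and 9.68 in untreated EBs. At day 8 it read 9.92, 9.84 and 9.85 in treated EBs, against 9.67, 9.57 and 9.80 in untreated EBs. The groups did not overlap on these days, and Herpud1 rose over them by 0.30 (SE 0.05, 1.23-fold, adjusted p = 0.00173).

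Edem1, a lectin that routes misfolded glycoproteins to degradation, had differences of 0.23, 0.27 and 0.26 at days 4, 6 and 8. At day 6 it read 11.16, 11.09 and 11.06 in treated EBs, against 10.86, 10.81 and 10.81 in untreated EBs. Its difference over the drug days was 0.25 (SE 0.03, adjusted p = 0.00042). Derl2, a derlin of the export machinery, read 10.25, 10.14 and 10.24 in treated EBs at day 6, against 10.00, 9.87 and 9.87 in untreated EBs. Its day 8 arrays read 10.20, 10.04 and 10.07 in treated EBs, against 9.67, 9.68 and 9.81 in untreated EBs, and over the drug days it rose by 0.27 (SE 0.04, adjusted p = 0.000958). At day 4 the groups of Derl2 overlapped.

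Sel1l, the adaptor of the HRD1 ligase, read 10.57, 10.19 and 10.37 in treated EBs at day 8, against 10.06, 9.94 and 10.13 in untreated EBs, and rose over the drug days by 0.20 (adjusted p = 0.0183). Derl1, the founding derlin, read 11.23, 11.35 and 11.17 in treated EBs at day 6, against 10.98, 11.04 and 11.04 in untreated EBs (0.19 over the drug days, adjusted p = 0.0093). Sec61b, a subunit of the translocation channel, read 10.50, 10.31 and 10.35 in treated EBs at day 4, against 10.10, 10.09 and 10.02 in untreated EBs (0.25 over the drug days, adjusted p = 0.00906). These 3 were called over the drug days, and each rests on non-overlapping arrays on at least 1 of them. Syvn1, the HRD1 ligase itself, had 0.16 (adjusted p = 0.123). Derl3, a derlin of secretory tissue, differed in sign between days: 0.37 at day 4, -0.30 at day 6 and -0.28 at day 8, none of them called.

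Genes rose both with and without an element over the drug days, where 4.66% of all genes rose. Of the 11 genes of the chaperone and degradation arm with either ER stress response element, 8 rose over the drug days, with a median of 0.17. Of the 10 with a promoter and neither element, 7 rose, with a median of 0.20. Among the 19 other genes on the array with either element, 2 rose, Alg12 (0.26, adjusted p = 0.0017), a mannosyltransferase of N-glycan assembly in the ER, and Lgalsl (0.14), and the median was 0.02.

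Of the sensors, the transcripts for the ATF6 branch and for Xbp1 rose and those for the kinases did not pass the test. Xbp1, the factor activated by IRE1, read 11.44, 11.32 and 11.24 in treated EBs at day 4, against 11.14, 11.18 and 11.20 in untreated EBs. At day 6 it read 10.88, 11.02 and 10.83 in treated EBs, against 10.66, 10.77 and 10.72 in untreated EBs. The day 8 arrays read 11.33, 11.17 and 11.21 in treated EBs, against 10.99, 10.94 and 10.82 in untreated EBs. The groups stayed apart on these days, and the difference over them was 0.22 (SE 0.04, 1.17-fold, adjusted p = 0.00292). The probe set reads Xbp1 mRNA as a whole, and splicing was not measured here.

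Atf6 read 9.91, 9.59 and 9.73 in treated EBs at day 8, against 9.57, 9.34 and 9.52 in untreated EBs, and rose over the drug days by 0.18 (adjusted p = 0.0206). That call ended without untreated replicate 2 (0.0586) or treated replicate 1 (0.0528) of day 8. Eif2ak3, which encodes PERK, read 9.42, 9.30 and 9.44 in treated EBs at day 4, against 9.14, 9.29 and 9.37 in untreated EBs, which overlap, and had 0.06 over the drug days (adjusted p = 0.511). Ern1, which encodes IRE1, had -0.03 (adjusted p = 0.768). At day 8 all 3 treated arrays of Ern1 (8.43, 8.46 and 8.45) lay below the untreated ones (8.52, 8.57 and 8.72), with a difference of -0.16 (adjusted p = 0.212).

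The genes of the ATF4 arm stood higher in treated EBs at day 4, near or above the untreated level at day 6, and mostly below it at day 8, and none of these differences was called. The median difference was 0.16, 0.13 and -0.11 at days 4, 6 and 8, against 0.20, 0.17 and 0.23 in the chaperone and degradation arm and 0.03, 0.00 and -0.04 over all genes. At day 4, 8 of 8 differences were above 0, against 64.1% of all genes. All treated arrays lay above the untreated ones for 5 of 8 genes on that day, against 8.19% of all genes. At day 6, 6 of 8 were above 0, against 51.4% of all genes. At day 8, 2 of 8 were above 0, against 37.4% of all genes, and 0 of 8 had arrays apart in either direction (9.37% above and 14.2% below over all genes). The day 6 median was 0.05 without untreated replicate 3 and 0.06 without treated replicate 1.

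Atf4 itself, the transcription factor, read 9.20, 9.24 and 9.13 in treated EBs at day 4, against 9.01, 9.02 and 8.89 in untreated EBs. At day 6 it read 9.22, 9.35 and 9.37 in treated EBs, against 9.09, 9.16 and 9.13 in untreated EBs. At day 8 it read 8.81, 9.13 and 9.07 in treated EBs, against 9.08, 9.09 and 9.23 in untreated EBs. The arrays were apart at days 4 and 6 and overlapped at day 8, where the difference was -0.13 (adjusted p = 0.363). Over the drug days the difference was 0.09 (SE 0.05, adjusted p = 0.267). ATF4 is controlled largely at translation, which an array of mRNA does not read.

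Ddit3, which encodes the death-associated factor CHOP, read 9.38, 9.55 and 9.21 in treated EBs at day 4, against 9.07, 8.94 and 8.70 in untreated EBs. Its day 8 arrays read 8.35, 8.83 and 8.65 in treated EBs, against 8.66, 8.50 and 8.62 in untreated EBs. Its 0.48 at day 4 (SE 0.17, adjusted p = 0.85) was the largest difference of the 36 on that day, with arrays apart, and at day 8 it was 0.01. Chac1, a glutathione-degrading enzyme and known ATF4 target, read 9.46, 9.58 and 9.39 in treated EBs at day 4, against 9.09, 9.07 and 9.12 in untreated EBs. The day 8 arrays read 8.55, 9.21 and 8.87 in treated EBs, against 8.89, 9.08 and 9.14 in untreated EBs, so that arrays that were apart at day 4 overlapped there.

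The remaining targets had smaller differences over the drug days. Trib3, a pseudokinase that binds ATF4, had 0.07, Asns, which makes asparagine, 0.05, Sesn2, a sestrin that restrains mTORC1, -0.04, Ppp1r15a, the phosphatase subunit that reverses eIF2 phosphorylation, 0.01, and Atf3, a stress transcription factor, 0.00. Treated replicate 1 of day 8 read lowest of the 6 day 8 arrays for Atf4, Ddit3, Trib3, Asns, Chac1 and Sesn2. The same array read highest of the 3 treated ones in the chaperone and degradation arm. With each day 8 array left out in turn the ATF4 median ran from -0.17 to -0.05, the last of these without treated replicate 1.

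At day 12, after the drugs were withdrawn, 1 of the 36 genes was higher in EBs that had been treated and 1 was lower, where 7.49% of all genes were higher and 10.4% lower. Derl2 read 9.64, 9.78 and 9.77 in treated EBs, against 9.45, 9.54 and 9.45 in untreated EBs (0.25, adjusted p = 0.0181), and all 3 treated arrays lay above. Sdf2l1 read 9.54, 10.12 and 9.84 in treated EBs, against 10.20, 10.16 and 10.18 in untreated EBs (-0.34, SE 0.10, adjusted p = 0.0205), and all 3 treated arrays lay below. The SD of Sdf2l1 was 0.29 in these treated arrays and 0.02 in the untreated ones, and the SE pools all 8 groups. The call of Derl2 ended without untreated replicate 1 or 3 or treated replicate 2 or 3, that of Sdf2l1 without untreated replicate 1 or 3 or treated replicate 1 or 3, and both when the day 12 arrays were fitted alone. With same-numbered arrays treated as pairs, 2 genes fell in place of 1, and 2504 of all genes in place of 2070. The median of the chaperone and degradation arm was 0.07 and that of the ATF4 arm -0.03, against 0.02 over all genes. All treated arrays lay above the untreated ones for 9 of 36 genes (15.4% of all genes) and below for 1 (17.1%).

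Set against the mean of days 4, 6 and 8, the treatment effect at day 12 was lower for 3 of 36 genes and higher for 0, where 7.84% and 4.86% of all genes changed in those directions. The 3 were Sdf2l1, whose effect changed by -0.50 (SE 0.12, adjusted p = 0.0072), Hyou1, by -0.35 (SE 0.07, adjusted p = 0.003), and Pdia6, by -0.26 (SE 0.07, adjusted p = 0.019). Hyou1 read 10.38, 10.54 and 10.39 in treated EBs at day 12, against 10.55, 10.70 and 10.51 in untreated EBs. Pdia6 read 11.18, 11.16 and 11.23 in treated EBs, against 11.14, 11.13 and 11.19 in untreated EBs, so the groups overlapped. Over the chaperone and degradation arm 20 of 24 effects were smaller at day 12 than over the drug days, with a median change of -0.14, and over all genes the median change was 0.01. Because the genes were chosen with earlier results of these data known, this count is a description and not independent evidence. The share of 3 in 36 lay near the share of all genes that changed that way. At day 12 the median was 0.04 for the chaperones and folding enzymes, with 11 of 16 above 0, and 0.15 for the degradation and translocation genes, with 8 of 8 above 0, against 53.8% of all genes. Sec61b, at 0.18 in the probe set used, had 0.10 and -0.02 in its other, dimmer probe sets on that day. Markers of visceral endoderm and mesenchyme, given above, had medians of 0.90 and 1.07 on that day, and their part in these values was not tested.

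**Figure D4:**
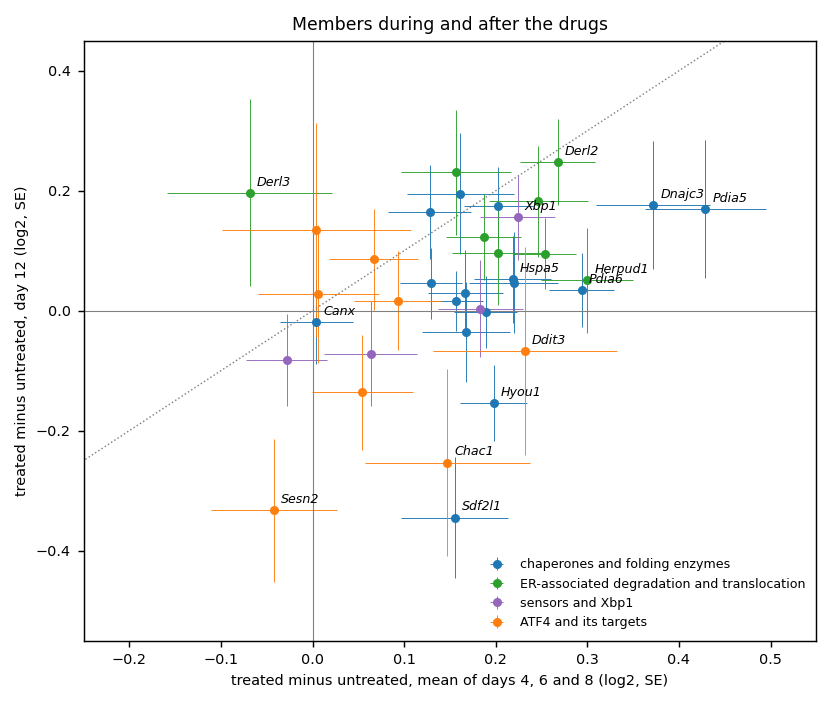
Treated minus untreated difference (log2 signal, with SE) of each of the 36 genes over the mean of days 4, 6 and 8 (horizontal axis) and at day 12 (vertical axis), coloured by role, with the line of equal values dotted. Most chaperones and degradation genes lie right of 0 and below the dotted line, Derl2 (0.27 and 0.25) lies close to it, and Sdf2l1 and Hyou1 lie below 0 at day 12.

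The untreated EBs show the course on which these differences lie. From day 4 to day 6, 7 of 36 genes rose and 3 fell (21.1% and 20.9% of all genes). From day 6 to day 8, 2 rose and 7 fell (17.8% and 18.3%). From day 8 to day 12, 7 rose and 7 fell (18.8% and 19.9%). The split moved with scaling: after centring each array on its median 6 rose and 8 fell from day 4 to day 6, and 5 rose and 12 fell from day 8 to day 12.

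Some of these genes moved by more than the largest treatment difference among them, 0.61 for Pdia5 at day 8, and others by less. Derl3 had the widest course, with untreated means of 10.33 ± 0.15, 10.07 ± 0.22, 8.86 ± 0.18 and 7.92 ± 0.19 at days 4, 6, 8 and 12 (SD, n = 3). It fell by 1.21 from day 6 to day 8 (adjusted p = 1e-05) and by 0.94 from day 8 to day 12 (adjusted p = 4.9e-05). Ddit3 had untreated means of 8.90 ± 0.19, 9.69 ± 0.38, 8.60 ± 0.08 and 9.01 ± 0.08, with a peak at day 6. Herpud1 had 9.55 ± 0.05, 9.84 ± 0.14, 9.68 ± 0.11 and 10.60 ± 0.06, and its rise of 0.92 from day 8 to day 12 (adjusted p = 3e-08) exceeded its largest treatment difference. Creld2, another ER stress gene, went the other way over those days and fell by 0.51 (adjusted p = 6.5e-06). Sel1l (0.57), Pdia5 (0.53), Chac1 (0.78) and Sesn2 (0.60) rose from day 8 to day 12 with Herpud1. Xbp1 fell by 0.46 from day 4 to day 6 (adjusted p = 3.3e-05).

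In treated EBs, 13 of 36 genes fell and 4 rose from day 8 to day 12, where 16.7% and 16.5% of all genes did. All 13 belonged to the chaperone and degradation arm, among them Creld2 (-0.64), Dnajb11 (-0.58), Manf (-0.52) and Pdia6 (-0.44). The 4 that rose were Herpud1 (0.78), Chac1 (0.68), Sesn2 (0.46) and Sel1l (0.33), each of which also rose in untreated EBs. Earlier, 5 rose and 7 fell from day 4 to day 6 (19.1% and 25.1% of all genes), and 7 rose and 9 fell from day 6 to day 8 (16.8% and 24.7%). In the ATF4 arm 4 of 8 genes fell in treated EBs from day 6 to day 8, namely Ddit3 (-1.27), Sesn2 (-0.45), Atf4 (-0.31) and Trib3 (-0.28), and in untreated EBs 2 of 8 did, Ddit3 (-1.09) and Sesn2 (-0.30). The difference between these courses is the change of the treatment effect given above, which was called for none of them.

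**Figure D5:**
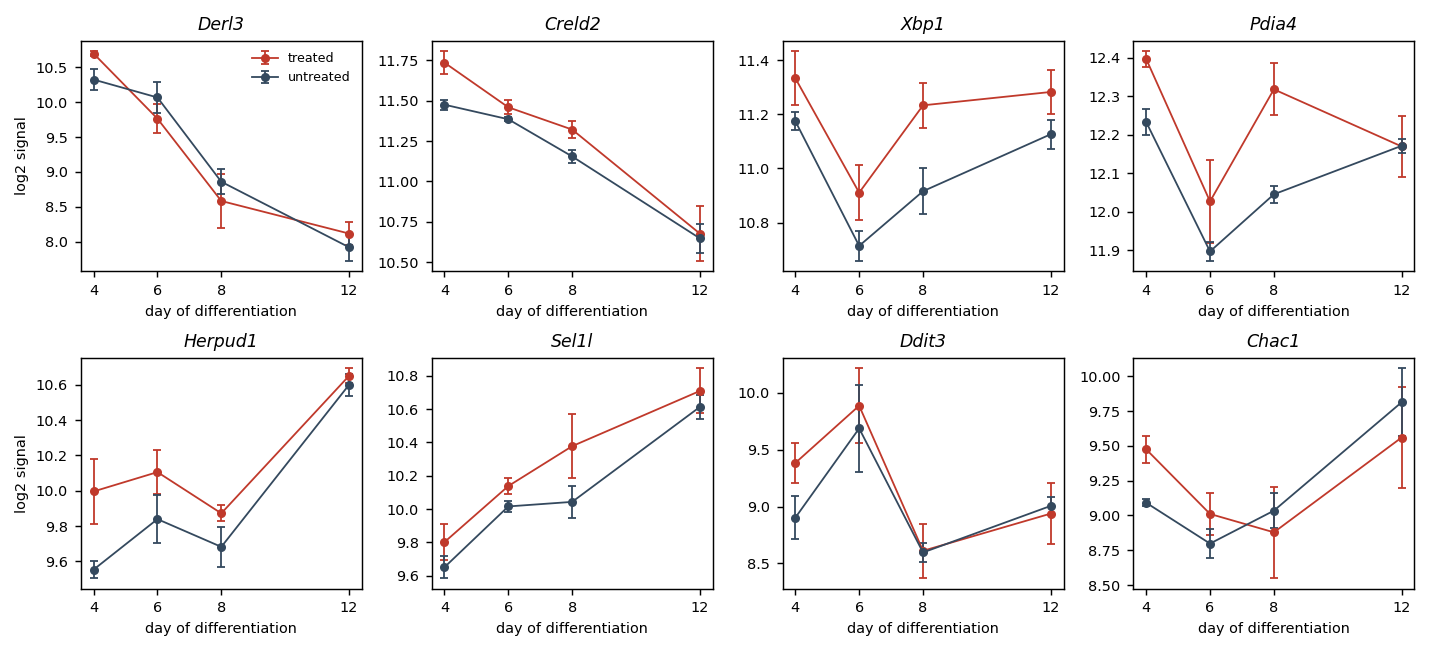
Group means of log2 signal with SD (n = 3) against day of differentiation for 8 genes in treated and untreated EBs, on axes that do not start at 0. Derl3 falls in both series, Herpud1 and Sel1l rise to day 12 in both, and Ddit3 peaks at day 6 in both.

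Further genes of the same pathways were read in the same way. They came from lists drawn up for this purpose, also with earlier results of these data known. Of 42 other genes of ER folding, glycosylation and transport, 24 rose over the drug days and 0 fell, with a median of 0.15, where 4.66% of all genes rose and the median was -0.00. The same shares apply to the lists that follow. Dnajc10, an ER disulfide reductase, rose by 0.27 (adjusted p = 0.000541), Erp44, which retains proteins in the early secretory pathway, by 0.25, Ostc, a subunit of oligosaccharyltransferase, by 0.23, and Fkbp7, a prolyl isomerase of the ER, by 0.48. Of 18 other degradation genes 3 rose, with a median of 0.11: Selenos (0.36) and Ubxn4 (0.22) of the export complex, and Dnajb14 (0.25), a J-domain protein of the ER membrane.

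Of 14 other regulators of the unfolded protein response 3 rose, with a median of 0.04, and these were the ER-membrane transcription factors Creb3 (0.34), Creb3l2 (0.52) and Creb3l1 (0.54). At day 8 their differences were 0.70, 1.03 and 1.32. Creb3l1 and Creb3l2 are known for secretory and matrix-making cells. Markers of mesenchyme and of other cell types moved on the same day, as given above, and their part in these values was not tested. Of 39 other ATF4-type genes 4 rose over the drug days, with a median of 0.03: Vldlr (0.54), a lipoprotein receptor, Aldh18a1 (0.24), which starts proline synthesis, the amino acid transporter Slc7a1 (0.23) and Psph (0.18) of serine synthesis. At day 8 0 of these 39 rose and 3 fell, where 4.86% of all genes rose and 4.08% fell. The 3 were Ddit4 (-0.64), Cbs (-0.46) and Cth (-0.49), with 10 of the 39 at an unadjusted p under 0.05 (24.2% of all genes) and a median of -0.08. Of 16 heat shock genes of the cytosol and mitochondria, 0 passed the limma test over the drug days (2 at an unadjusted p under 0.05, against 21.6% of all genes), and the median was 0.01. The median of the other ER folding genes thus lay near that of the chaperone and degradation arm, and the median of the cytosolic and mitochondrial chaperones near that of all genes.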

How the data were processed

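RNA of 24 EB samples was hybridised to Affymetrix Mouse Gene ST 1.0 arrays. Per the submitters' processing notes, the deposited values were made by the authors with RMA in Affymetrix Expression Console. The software version and genome build were not given in the sources used here. As deposited, the table holds log2 signals for 35556 probe sets, with the log2 scale taken from their range. The precision is limited by having 3 arrays a group, which gave a day 4 treatment difference a median SE of 0.09 over genes, and signals near background could not be set apart. Array medians lay between 7.80 and 7.88, and no pair of arrays was identical (smallest SD between a pair 0.121).

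Of the probe sets 21789 had 1 symbol in the platform annotation, 1621 several and 12146 none. The highest-mean probe set was used for 999 genes with more than 1, which left 19938 genes. For the tests, limma 3.58.1 (R 4.3.3) was used (lmFit, 1 mean per group, 16 residual degrees of freedom, eBayes, Benjamini-Hochberg within each contrast, threshold 0.05). The same steps were tested on simulated data. Plots were drawn with matplotlib 3.10.9, and tables made with pandas 2.3.3 and numpy 2.4.6, in Python 3.11.15.

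The 36 genes and all lists were chosen with earlier results of these data known, so their directions are not independent evidence. Array values were printed for genes called by treatment, for the 3 of each role with the smallest p at day 4, and for Atf4, Ddit3 and Xbp1, and of other lists up to 4 called genes per contrast. Ern1 at day 8 was printed after its values were seen. Marker lists covered visceral endoderm, mesenchyme, stem cells and epiblast, neural cells, and blood and endothelium.

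Replicate numbers were read as pairing the arrays where every same-numbered correlation of deviations from the group means was over 0.1. These correlations were 0.30, 0.14 and 0.21 at day 6, and 0.48, 0.55 and 0.11 at day 8. At day 12 they were 0.12, 0.34 and 0.25, but at day 4 -0.01, 0.19 and -0.05. Even so, treated replicate 3 correlated best with untreated replicate 1 at days 8 and 12, not with its own number. The alternatives tried were quantile normalization, median centring, leaving out genes whose mean level was below percentile 40, averaging the probe sets of a gene, array weights, a prior with trend and robust fit, replicate blocks, the compared groups alone, and each array left out in turn.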

Additional observations from a re-analysis of the deposited data

Results flagged for a closer look

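The treatment effect of 3 genes differed between day 12 and the mean of days 4, 6 and 8, by limma's test of that difference. It changed by -0.5 for Sdf2l1, by -0.35 for Hyou1 and by -0.26 for Pdia6 on the log2 scale. The calls of Sdf2l1 and Hyou1 held in all 33 alternatives. That of Pdia6 ended without untreated replicate 3 or treated replicate 1 of day 12, with a highest adjusted p of 0.0550. At day 12 treated replicate 1 was the lowest of the 6 arrays for Sdf2l1 (9.54, against 10.12 and 9.84 in the other treated arrays). The SD there was 0.29 in treated and 0.02 in untreated arrays. These alternatives pool the spread over groups, so they do not take up that difference. The drugs had ended and the medium had changed before day 12, and these cannot be told apart.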

How the results depend on the processing

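Of 43 called treatment differences of the 36 genes, 19 kept their call in every alternative other than days 4 and 6 alone, 22 lost it without at least 1 array, and 0 changed sign. Of 78 called differences between days, 41 kept the call, and 1 changed sign: Pdia4 in treated EBs from day 6 to day 8 was -0.13 with the mean of its probe sets, against 0.29. Of 101 called treatment differences of genes of other lists 1 changed sign, the neural marker Zic1, at 0.0070 with days 4 and 6 alone. Of the differences that were not called, 31 became called in an alternative and 30 changed sign, the largest being 0.20. The cause of the changes below was not tested. Genes higher at day 4 (0) were 1 with the filter or the trend prior and 10 with array weights, where 6, 5 and 100 of all genes were. At day 6 (3) they were 8 with array weights, 5 with the replicate block within day, 0 with the compared groups alone and 0 to 2 with 1 array left out, where the ATF4 median was 0.046 to 0.16. Over all genes these day 6 fits gave 668, 418, 265 and 79 to 246 higher, against 251. At day 8 (15 higher, 0 lower) 0 were higher with the compared groups alone and 2 to 16 without 1 array, and 2 were lower with array weights and 0 to 2 without 1 array. Over all genes 0 and 201 to 1769 were higher in these fits, and 3018 and 133 to 1898 lower. The day 8 median of the chaperone and degradation arm (0.23) was 0.28 after centring and 0.19 to 0.27 without 1 array. At day 12 (1 higher, 1 lower) 2 were higher with the filter, quantile normalization, centring, the trend prior or the replicate block, 4 with array weights, 0 with the compared groups alone and 0 to 2 without 1 array. Lower at day 12 were 2 with the filter, the trend prior, array weights or either replicate block, 0 with the compared groups alone and 0 to 4 without 1 array. Over all genes array weights gave 2119 higher and 2643 lower at day 12, and the compared groups alone 1119 and 1338. Leaving out 1 array gave 919 to 1791 higher and 1240 to 2533 lower. The replicate blocks ended no call of a treatment difference of the 36 genes. Over the drug days (20) 6 were higher with days 4 and 6 alone, with an ATF4 median of 0.15, and 17 to 23 without 1 array. Over all genes these fits gave 130 and 504 to 1593 higher, against 930. For changes of the effect, array weights gave 1 lower between days 4 and 6, 1 higher between days 6 and 8, and 1 higher and 4 lower between days 8 and 12. There 1 was lower with the filter and 2 with the trend prior, and without 1 array 0 to 1 were higher from day 6 to 8, 0 to 1 higher and 0 to 3 lower from day 8 to 12. From the drug days to day 12 (3 lower) 5 were lower with the trend prior and 2 to 5 without 1 array. In untreated EBs from day 4 to 6 (7 higher, 3 lower) array weights gave 11 higher and 8 lower, quantile normalization or centring 8 lower and the compared groups alone 5 lower. From day 6 to 8 (2 higher, 7 lower) the filter, the trend prior or array weights gave 4 higher, quantile normalization 4 lower, and leaving out 1 array 0 to 2 higher and 4 to 7 lower. From day 8 to 12 (7 lower) centring gave 12 lower. In treated EBs from day 4 to 6 (5 higher, 7 lower) quantile normalization gave 3 higher and 11 lower, centring 12 lower, array weights 9 higher and leaving out 1 array 3 to 5 higher. From day 6 to 8 (9 lower) quantile normalization gave 5 lower, and from day 8 to 12 (4 higher, 13 lower) the compared groups alone gave 1 higher and 7 lower.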

Other observations

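Markers of stem cells and epiblast had median differences of -0.04, -0.15, -0.75 and 0.56 at days 4, 6, 8 and 12, with 0 of 10 risen at day 8 and 5 at day 12. Over all genes 4.86% and 7.49% rose on these 2 days. Markers of blood and endothelium had medians of -0.04, -0.11, 0.54 and 0.16, with Kdr (1.82) risen at day 6 and Pecam1, Tek and Cdh5 at day 8. Over all genes 1.26% rose at day 6 and 4.86% at day 8. Of the heat shock genes, Hspa4l fell at day 8 (-0.52) and day 12 (-1.17), and Hspb1 rose at day 12 (0.60). Ero1b, a disulfide oxidase of the ER, fell at day 12 (-0.42, adjusted p = 0.000365), and Eif2ak4, the amino acid sensing kinase of the integrated stress response, fell as well (-0.29). Of the other ATF4-type genes 5 of 39 fell and 2 rose at day 12, near the 10.4% and 7.49% of all genes that did, among them Gpt2 (-0.45), Sqstm1 (0.39) and Nupr1 (0.92).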
